A study of Mus musculus with 8 samples.

Results

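Glycolysis breaks glucose down to pyruvate in the cytosol, and most of its steps can be run by several isozymes, enzymes that share a reaction but are encoded by different genes with their own tissue pattern. The genes described here include Hk1 and Hk2 (hexokinases, which phosphorylate glucose on entry), Pfkl and Pfkp (phosphofructokinases, the committed step) and Aldoa (aldolase A). Further down the pathway are Pgk1 (phosphoglycerate kinase, which forms ATP), Eno1 (enolase) and Pkm (pyruvate kinase M, which forms ATP and pyruvate). The last are Ldha (lactate dehydrogenase A, which turns pyruvate into lactate) and Pdk1 (pyruvate dehydrogenase kinase, which restrains the oxidation of pyruvate in mitochondria). All were taken by gene symbol from the deposited table, 10 of its 25239 genes. In the healthy kidney the proximal tubule lives mainly on oxidation of fatty acids and makes glucose, whereas distal segments rely more on glycolysis. Injured tubule cells and activated myeloid cells are known for raising glycolytic enzymes, and Hk2, Pgk1, Ldha and Pdk1 are among the textbook targets of the hypoxia-inducible factors.

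The study profiled kidney RNA of mice 8 to 10 weeks old after ischemia-reperfusion (I/R), the interruption and return of the blood supply, by RNA-seq. All 8 libraries come from kidneys treated alike: the right kidney was taken out, the vessels of the left one were clamped for 35 minutes, and the tissue was later digested with collagenase. The 4 control libraries have the genotype label WT, and the 4 knockout libraries are labelled myeloid-specific FoxO1-knockout, from Lyz2-CreERT2 FoxO1 flox/flox animals given tamoxifen at 75 mg per kg on 5 days to switch on the Cre recombinase. The tamoxifen text stands with the control samples too, and whether controls carried Cre or floxed alleles, and the time from reperfusion to collection, are not stated in the labels. FoxO1 is a transcription factor that insulin signalling keeps out of the nucleus, and the Lyz2 promoter drives the recombinase in myeloid cells, which are a minority of a kidney. No uninjured kidney was analysed here. No label says that the libraries come from separate animals, so a p-value here reflects how much these 8 libraries vary, some of which may be technical.

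Library totals ran from 29044405 to 35530421 counts. All marker genes listed for proximal tubule (10 of 10), loop of Henle (6 of 6) and distal nephron (11 of 11) passed the filter on low counts. Foxo1 itself stood at 33.0 to 34.5 CPM (counts scaled to a common library size) in controls and 39.3 to 42.9 CPM in knockouts; in whole kidney this does not check deletion in myeloid cells. Lyz2 was far below its group in control 1 (81 counts against 844 to 1610 in the other controls) and in knockout 3 (13 against 858 to 1302). A principal component analysis of log2 CPM put control 1 farthest out, at -45.1 on its leading axis against -24.4 to -10.98 for the other controls. Several results are therefore also given without 1 or both of these libraries, but not every result is. In whole tissue, fewer cells of a type and less RNA per cell cannot be told apart.

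Of the 10 genes, 2 were higher in the knockout (Hk1 and Pdk1), 1 was lower (Hk2) and 7 did not pass the threshold, an edgeR adjusted p under 0.05. Over the 15000 genes tested the share called was 12.7%, with 6.45% higher and 6.28% lower. All 10 passed the filter on low counts. The 10 genes had a median log2 fold change, knockout over control, of -0.04, against -0.01 over all genes tested. The 3 called genes are also the 3 whose groups did not overlap, which held for 21.7% of all genes tested.

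**Figure D1:**
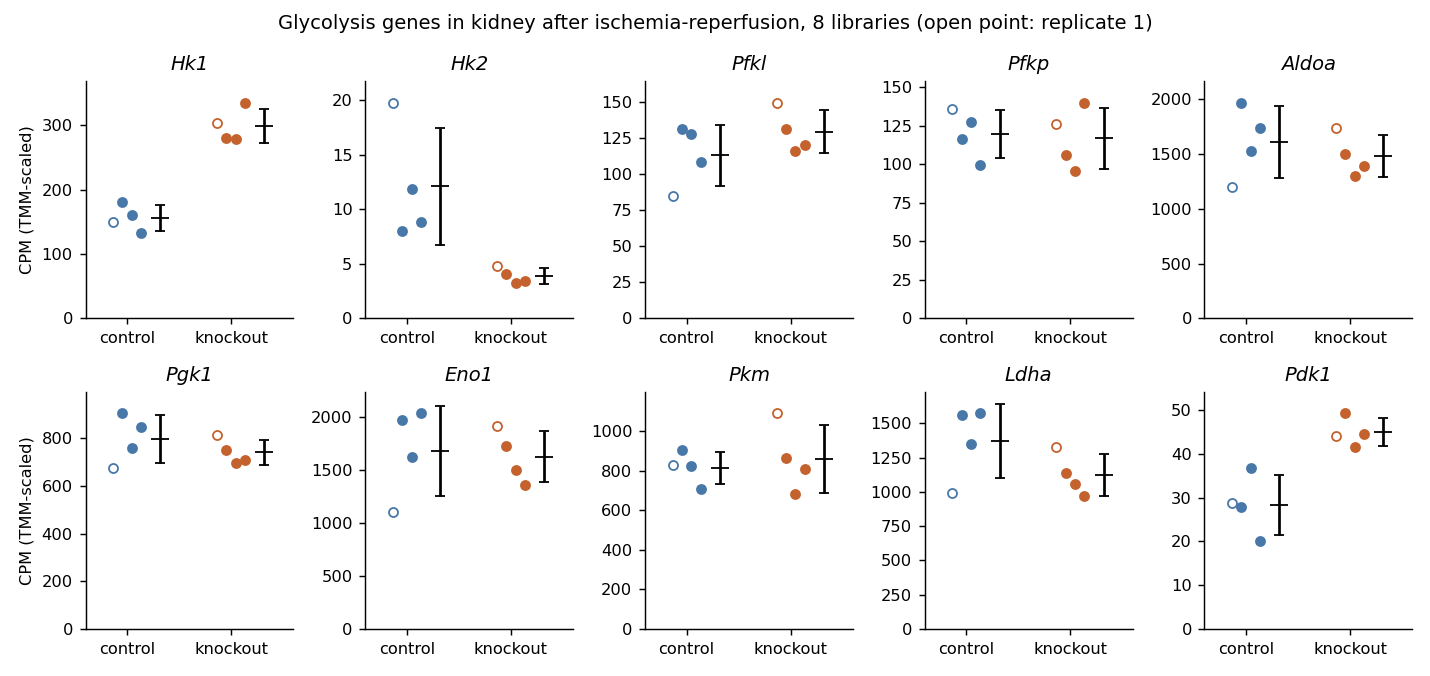
Level of each of the 10 genes in CPM (vertical axes, each from 0) in the 4 control and 4 knockout libraries; points are libraries, the open point is replicate 1 of each group, and the bar is the mean ± SD. The groups stand apart for Hk1, Hk2 and Pdk1 and overlap for the other 7 genes.

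The windows upstream of these genes are shown next, since 3 of the genes passed the threshold and the others did not. RefSeq promoter windows on GRCm38.p6 matched all 10 genes, with 18 windows because several genes have more than 1 listed start. The 250 bases before each start were searched on both strands for ACGTG and GCGTG, the core letters bound by hypoxia-inducible factors. CACGTG reads as ACGTG on both strands and counts as 1 stretch. Of the 18 windows, some of which overlap each other, 14 (77.8%) held a match, against 38.6% of 32851 windows of all genes. Both searched words contain the letters CG. The 14 windows with a match held 9 to 25 CG pairs. The 4 without held 0 (Aldoa), 1 (Hk1), 2 (Pdk1) and 21 (Pkm). CG pairs were not counted in the windows of all genes, so their part in the difference was not tested. Matches occurred in windows of all 10 genes, both those that passed the threshold and those that did not. The 4 windows below overlap no annotated exon in GENCODE M21 and belong to the 3 genes that passed the threshold and to Ldha, which did not pass. Matches are in capitals, the rest in lower case, 5′ to 3′ on the strand of the gene.
Hk1 (chr10:62379909-62380158, minus strand, upstream of the gene): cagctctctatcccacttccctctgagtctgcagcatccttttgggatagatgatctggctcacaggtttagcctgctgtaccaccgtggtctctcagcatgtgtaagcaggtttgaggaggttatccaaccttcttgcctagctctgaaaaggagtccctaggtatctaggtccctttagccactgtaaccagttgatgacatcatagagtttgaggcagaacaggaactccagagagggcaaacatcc
Hk2 (chr6:82774455-82774704, minus strand, upstream of the gene): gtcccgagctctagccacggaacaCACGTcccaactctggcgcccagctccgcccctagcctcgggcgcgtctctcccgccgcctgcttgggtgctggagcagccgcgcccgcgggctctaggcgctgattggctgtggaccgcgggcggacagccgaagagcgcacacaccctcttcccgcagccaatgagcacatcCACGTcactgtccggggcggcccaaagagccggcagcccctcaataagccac
Pdk1 (chr2:71872974-71873223, plus strand, upstream of the gene): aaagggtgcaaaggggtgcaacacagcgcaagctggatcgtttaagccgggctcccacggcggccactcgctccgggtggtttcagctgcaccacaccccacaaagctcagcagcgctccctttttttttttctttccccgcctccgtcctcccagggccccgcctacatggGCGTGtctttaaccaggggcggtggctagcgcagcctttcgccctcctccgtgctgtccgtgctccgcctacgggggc
Ldha (chr7:46845554-46845803, plus strand, inside the annotated gene but in no exon): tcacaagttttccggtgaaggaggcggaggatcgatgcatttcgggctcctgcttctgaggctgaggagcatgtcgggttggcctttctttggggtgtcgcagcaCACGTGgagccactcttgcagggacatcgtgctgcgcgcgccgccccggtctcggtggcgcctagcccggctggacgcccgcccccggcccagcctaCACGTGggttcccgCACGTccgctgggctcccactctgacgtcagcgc
The Hk2 window held 2 stretches, the Pdk1 window 1, the Ldha window 3 and this Hk1 window 0. A second Hk1 window, which overlaps an annotated untranslated exon and is not shown, held 2. A match is a description of letters and does not show binding.

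The hexokinases moved in opposite directions. Hk1, the isozyme found in most tissues and bound to the outer mitochondrial membrane, stood at 149.9, 181, 161 and 133 CPM in controls 1 to 4, against 303, 280, 278 and 335 CPM in knockouts 1 to 4. Every knockout library lay above every control library. The means were 156 ± 20.4 and 299 ± 26.6 CPM (SD, n = 4 each), a fitted rise of 1.92-fold (log2 fold change 0.94 with SE 0.13, edgeR adjusted p = 0.00240), with a 95% interval of 1.57- to 2.33-fold. Over 17 alternative fits the log2 fold change stayed between 0.85 and 1.02 and each fit called it (adjusted p up to 0.0227). Without control 1 it was 0.92, and without control 1 and knockout 3 together 0.95. Hk1os, an antisense neighbour, had 10 to 34 counts per library against 4092 to 11317 for Hk1. How reads that overlap both genes were assigned is not known, since the tool that counted is not given.

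Hk2, the inducible hexokinase of muscle, tumours and activated cells, stood at 19.8, 8.01, 11.9 and 8.81 CPM in controls 1 to 4, against 4.79, 4.08, 3.22 and 3.38 CPM in knockouts 1 to 4. Control 1 was the highest library, and every knockout lay below every control. The means were 12.1 ± 5.37 and 3.87 ± 0.720 CPM (SD, n = 4 each), a fitted fall of 3.14-fold (log2 fold change -1.65 with SE 0.30, edgeR adjusted p = 0.00779). The counts behind these levels were 256 to 704 in controls and 114 to 141 in knockouts. Without control 1 the log2 fold change was -1.31, and with knockout 3 also left out -1.23 (adjusted p 0.00666 and 0.0212). Over the 17 alternative fits it ran from -1.81 to -1.23 and each fit called it (adjusted p up to 0.0324).

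Among the other hexokinases, Hk3, an isozyme of leukocytes, stood at 6.46, 2.85, 1.69 and 1.94 CPM in the control libraries against 1.22 to 1.81 CPM in the knockout libraries (log2 fold change -1.04 with SE 0.43, adjusted p = 0.138). Without control 1, its highest library, the log2 fold change of Hk3 was -0.45 (edgeR adjusted p = 0.407). Hkdc1, a hexokinase domain protein, had a log2 fold change of 0.00 (SE 0.24). To compare levels between genes, CPM were divided by the deposited gene length in kilobases. On that scale Hk1 made up 79.0%, 90.5%, 85.5% and 87.6% of the summed level of the hexokinase genes in controls 1 to 4 and 93.8% to 94.99% in the knockouts. The share of Hk2 was 8.53%, 3.27%, 5.17% and 4.76% in controls 1 to 4 and 0.780% to 1.23% in knockouts. The summed hexokinase level was 40.4 ± 4.73 CPM per kilobase in controls and 70.2 ± 6.09 CPM per kilobase in knockouts, 1.74 times as high, and its groups did not overlap. Hk1 supplied most of that sum in every library.

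The ratio of Hk2 to Hk1 within a library does not depend on how libraries are scaled. Per kilobase it was 0.108, 0.0362, 0.0606 and 0.0545 in controls 1 to 4 and 0.0130, 0.0120, 0.00949 and 0.00828 in knockouts 1 to 4. It was 5.70-fold lower in the knockout on the log2 mean (-4.06 ± 0.65 against -6.57 ± 0.30, SD, n = 4 each). An exact permutation test, two-sided and with 70 possible assignments, gave p = 0.0286, the smallest it can give with 4 against 4. Adjusted over the 9 isoform ratios computed, of which 8 are reported, it was 0.0514. Without control 1 the difference in log2 ratio was -2.23, against -2.51 with all libraries.

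Markers of other cells moved with these genes. Over all genes tested, 6.45% were called higher and 6.28% lower. Of 11 injured tubule markers 10 were lower in the knockout, with summed levels of 15735 to 30365 CPM in the control libraries against 6194 to 7009 CPM in the knockout libraries. All 5 neutrophil markers were lower, at 26.3 to 162 CPM in controls, the highest in control 1, and 5.47 to 15.2 CPM in knockouts. Of 10 macrophage markers 0 were called higher and 2 lower, with summed levels of 314 to 423 and 234 to 392 CPM. The log2 fold change was positive for 5 of these 10, with a median of 0.0017. Of 11 distal nephron markers 8 were higher, at 610 to 1567 and 2357 to 3151 CPM, as were 4 of 6 loop of Henle markers, at 2208 to 3792 and 6277 to 7309 CPM. Of 6 endothelial markers 3 were higher, with sums of 138 to 292 CPM in the control libraries and 294 to 371 CPM in knockout ones. Summed proximal tubule markers stood at 2242 to 6882 CPM in the control libraries and 5534 to 8024 CPM in knockout ones, and 3 of the 10 were higher. The part of these cell types in the opposite movement of Hk1 and Hk2 was not tested. Of 11 immediate early and heat shock genes, which tissue digestion can also induce, 7 were lower and 0 higher; their part was not tested either.

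The genes whose pattern over the 8 libraries was most like each hexokinase were found from the mean absolute difference in log2 CPM after centring each gene on its own mean. For Hk1 they were Osbpl1a (0.08), Etnk1 (0.09) and Kcnq1 (0.09). For Hk2 they were Cldn4, a tight junction claudin (0.14), the transcriptional repressor gene Tgif1 (0.14) and the immediate early gene Junb (0.16). For Pdk1 they included Abhd6 (0.09) and the transcription factor gene Gata2 (0.10).

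The phosphofructokinases of the list did not pass the threshold. Pfkl, the liver-type subunit, stood at 84.9, 131, 127 and 108 CPM in the control libraries against 149, 131, 116 and 120 CPM in the knockout libraries (log2 fold change 0.19 with SE 0.15, edgeR adjusted p = 0.439). Pfkp, the platelet-type subunit, stood at 136, 116, 127 and 99.3 CPM in the control libraries against 126, 106, 95.5 and 140.1 CPM in the knockout libraries (log2 fold change -0.04 with SE 0.15, adjusted p = 0.900). The groups overlapped for both genes. The 95% intervals of the fold were 0.904 to 1.45 for Pfkl and 0.776 to 1.23 for Pfkp. Pfkm, the muscle-type subunit and no member of the list of 10, was higher in the knockout: it stood at 20.04, 41.96, 34.6 and 34.6 CPM in the control libraries against 71.9, 67.6, 65.0 and 78.5 CPM in the knockout libraries (2.16-fold, log2 fold change 1.11 with SE 0.20, adjusted p = 0.00716). Its share of the phosphofructokinase level was 15.7 ± 3.54% in controls and 27.8 ± 1.47% in knockouts (SD, n = 4 each), with no overlap; of Pfkm and Pfkl alone, without Pfkp, it was 27.3% and 41.96%. The ratio of Pfkm to Pfkl was 0.310 to 0.421 in controls and 0.633 to 0.858 in knockouts (exact permutation p = 0.0286, adjusted 0.0514). The ratio of Pfkp to Pfkl was 0.864 to 1.56 in controls and 0.787 to 1.13 in knockouts (exact permutation p = 0.371, adjusted 0.478).

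The abundant enzymes of the middle and lower pathway overlapped between the groups. Aldoa stood at 1203, 1971, 1530 and 1736 CPM in the control libraries against 1740, 1504, 1300 and 1395 CPM in the knockout libraries (log2 fold change -0.12 with SE 0.18, edgeR adjusted p = 0.703). Pgk1 stood at 677, 905, 757 and 846 CPM in the control libraries against 812, 751, 697 and 709 CPM in the knockout libraries (log2 fold change -0.10 with SE 0.13, adjusted p = 0.655). Eno1 stood at 1106, 1969, 1625 and 2036 CPM in the control libraries against 1914, 1727, 1503 and 1362 CPM in the knockout libraries (log2 fold change -0.05 with SE 0.21, adjusted p = 0.898). In all 3 genes control 1 was the lowest library of the 8, and the other controls lay among or above the knockouts. Pkm stood at 827, 902, 824 and 705 CPM in the control libraries against 1090, 864, 680 and 806 CPM in the knockout libraries (log2 fold change 0.08 with SE 0.16, adjusted p = 0.788). The 95% intervals of the fold were 0.704 to 1.21 for Aldoa, 0.761 to 1.14 for Pgk1, 0.704 to 1.32 for Eno1 and 0.824 to 1.35 for Pkm, so a change of 1.5-fold in either direction lies outside each of them. Eno1b, a near-identical copy of Eno1 that can share its reads, had 322 to 846 counts per library against 39373 to 62927 for Eno1. Counts per gene do not tell the M1 and M2 splice forms of Pkm apart.

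Ldha stood at 995, 1564, 1346 and 1573 CPM in the control libraries against 1327, 1138, 1060 and 967 CPM in the knockout libraries. Control 1 lay among the knockouts, while the other controls lay above all 4 of them. The means were 1369 ± 271 and 1123 ± 153 CPM (SD, n = 4 each), and the log2 fold change of -0.29 (SE 0.18) did not pass (edgeR adjusted p = 0.313). Without control 1 it was -0.41 (adjusted p = 0.0971). Its partner Ldhb, whose subunit is typical of oxidative tissue, had a log2 fold change of 0.28 (SE 0.21, adjusted p = 0.404). Neither gene passed, but their ratio stood apart between the groups: Ldha over Ldhb per kilobase was 0.956, 0.808, 1.07 and 0.903 in controls and 0.611, 0.617, 0.660 and 0.592 in knockouts. The log2 ratio was -0.11 ± 0.17 in controls and -0.69 ± 0.0660 in knockouts, a difference of -0.58 (exact permutation p = 0.0286, adjusted 0.0514). Ldha thus made up 48.2 ± 2.88% of the lactate dehydrogenase level in controls and 38.3 ± 1.08% in knockouts, and the summed level was 1484 ± 349 and 1522 ± 213 CPM per kilobase. The difference in log2 ratio was -0.57 without control 1 and -0.60 without control 1 and knockout 3 together.

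For enolase and pyruvate kinase the ratios computed did not separate the groups. The enolase shares did, by a small amount. Eno1 held 99.50% to 99.61% of the enolase level in controls and 99.18% to 99.48% in knockouts. Eno3, the muscle enolase, held 0.253% to 0.347% and 0.408% to 0.694%. Eno1 exceeded Eno2, the neuronal enolase, 723- to 1207-fold per kilobase in controls and 587- to 1018-fold in knockouts (exact permutation p = 0.343, adjusted 0.478). Pkm exceeded Pklr, the pyruvate kinase of liver, red cells and proximal tubule, 16.7-, 6.53-, 6.83- and 4.50-fold in controls and 5.33- to 10.2-fold in knockouts (exact permutation p = 0.943, adjusted 0.943). Pgk2, the testis isozyme of Pgk1, was at 0 counts in all 8 libraries.

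**Figure D2:**
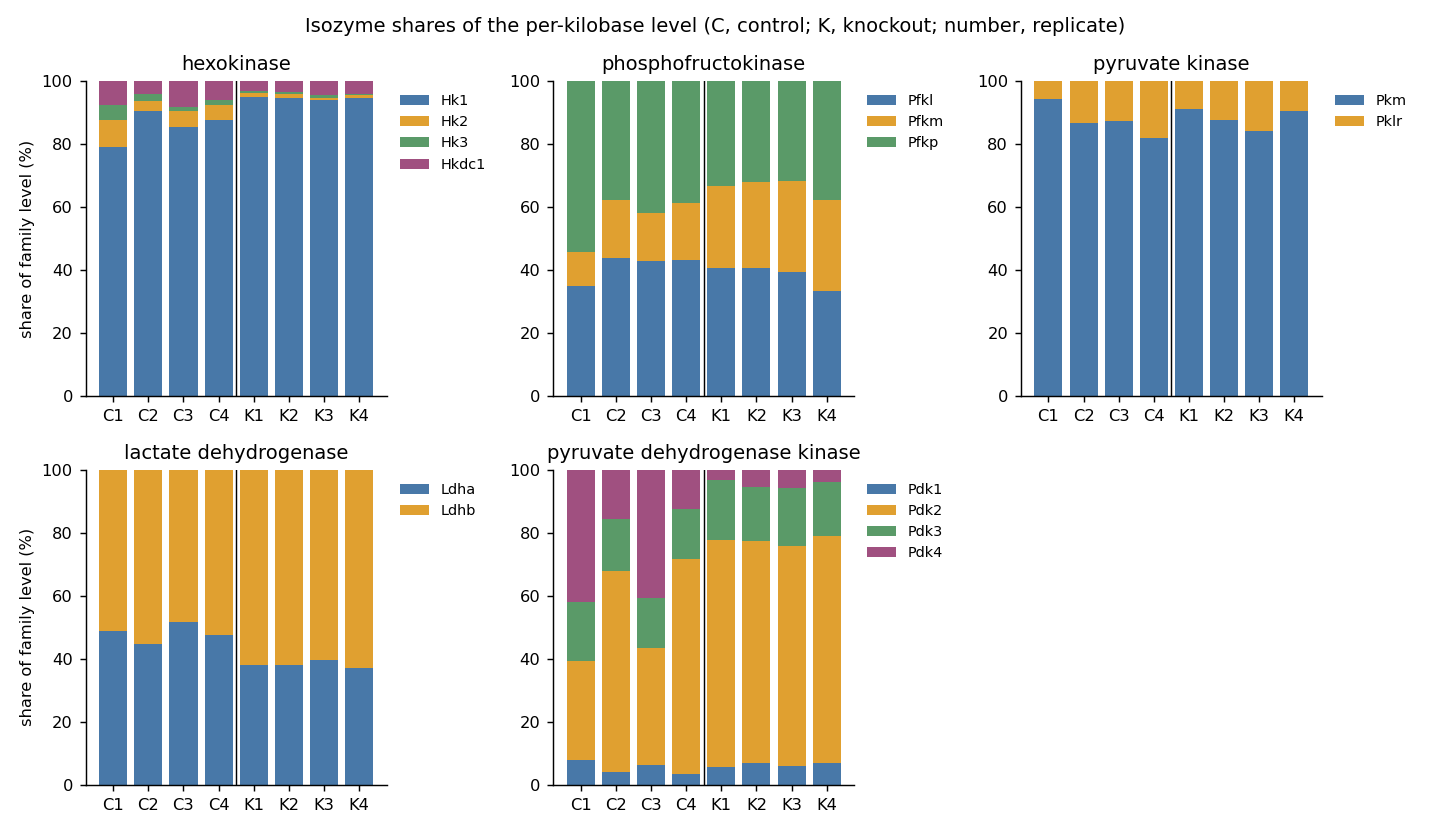
Share of each isozyme gene in the summed per-kilobase level of its family (vertical axes, percent), one bar per library, with controls C1 to C4 left of the line and knockouts K1 to K4 right of it. Hk1 takes 93.8% to 94.99% of the hexokinase level in knockouts, and the share of Ldha is lower in each knockout than in any control. Isozymes at trace levels are not drawn.

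Pdk1 encodes a kinase that inactivates pyruvate dehydrogenase and so restrains the oxidation of pyruvate in mitochondria. It stood at 28.8, 27.9, 36.8 and 20.1 CPM in the control libraries against 44.1, 49.2, 41.6 and 44.6 CPM in the knockout libraries. All knockouts lay above all controls. The means were 28.4 ± 6.85 and 44.9 ± 3.18 CPM (SD, n = 4 each), or 1.58-fold higher on the fitted scale (log2 fold change 0.66 with SE 0.17, edgeR adjusted p = 0.0304, interval 1.22- to 2.05-fold). This call was the least stable of the 3. It was lost when control 2 or any 1 of the knockouts was left out, with adjusted p from 0.0515 to 0.0814, and without control 1 and knockout 3 together (0.0758). The log2 fold change stayed between 0.53 and 0.81 over the 17 alternative fits.

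Pdk4, the isozyme that fasting and FoxO factors are known to induce, moved the other way and by more. It stood at 96.8, 66.7, 145 and 47.2 CPM in the control libraries against 16.4, 24.8, 25.5 and 15.4 CPM in the knockout libraries, 4.33-fold lower (log2 fold change -2.11 with SE 0.33, edgeR adjusted p = 0.00417). Pdk2 stood at 54.3, 203, 99.7 and 193 CPM in the control libraries against 213 to 265 CPM in the knockout libraries (log2 fold change 0.77 with SE 0.34, adjusted p = 0.167), and Pdk3 had a log2 fold change of 0.45 (SE 0.16, adjusted p = 0.0884). The ratio of Pdk1 to Pdk4 per kilobase was 0.186, 0.261, 0.158 and 0.266 in controls and 1.67, 1.24, 1.02 and 1.81 in knockouts, 6.57-fold higher (exact permutation p = 0.0286, adjusted 0.0514), and the log2 difference of 2.72 was 2.80 without control 1 and knockout 3 together. The ratio of Pdk1 to Pdk2 overlapped (exact permutation p = 0.6, adjusted 0.675). In the summed level of the 4 kinases Pdk4 held 12.6% to 42.1% in controls and 3.38% to 5.90% in knockouts, while Pdk1 held 3.34% to 7.83% and 5.66% to 7.09%. Pdk2 was the most abundant of the 4 in every knockout library and in controls 2 and 4, while Pdk4 was in controls 1 and 3.

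**Figure D3:**
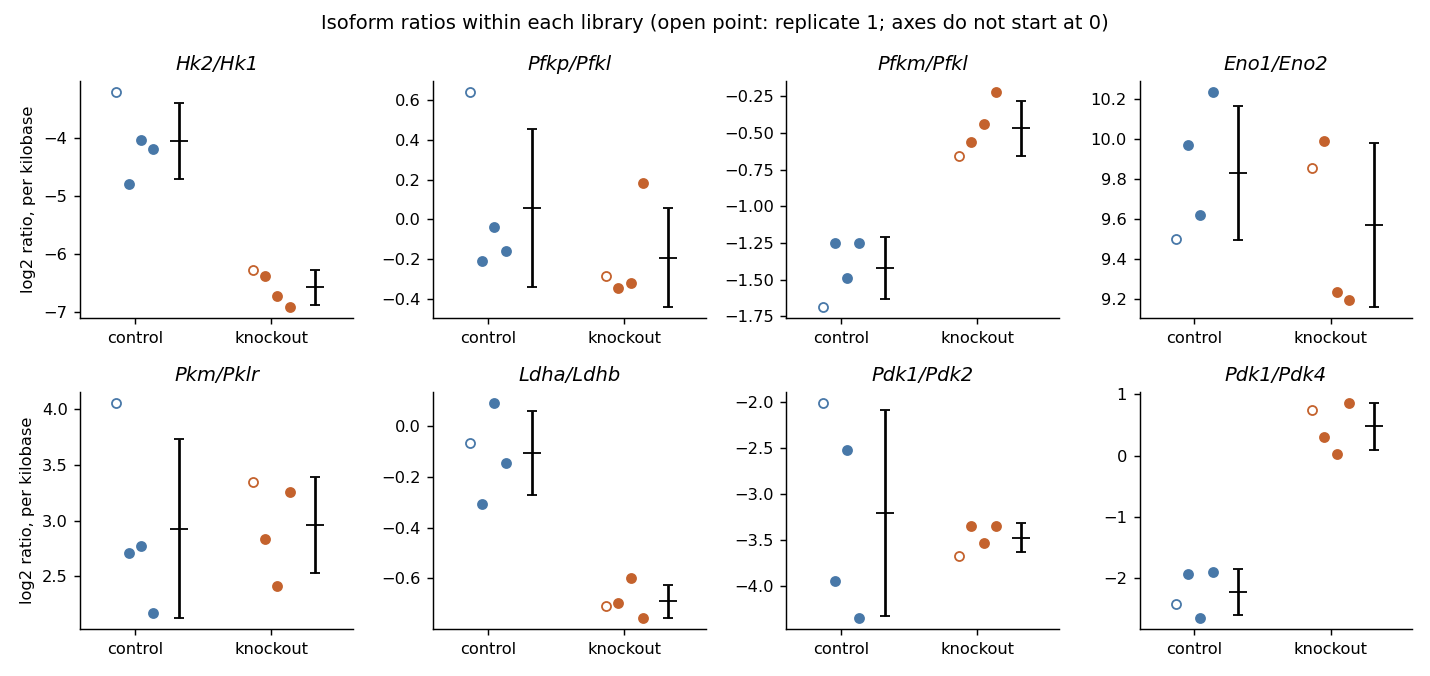
Log2 ratio of 2 isozyme genes per kilobase (vertical axes, not starting at 0) in 4 control and 4 knockout libraries; points are libraries, the open point is replicate 1, and the bar is the mean ± SD. The groups do not overlap in 4 of the 8 ratios: Hk2/Hk1, Pfkm/Pfkl, Ldha/Ldhb and Pdk1/Pdk4.

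The 8 ratios were thus split: 4 separated the groups and 4 did not. The 4 that did have the smallest p the design allows, and none falls under 0.05 after adjustment. As single genes, 21.7% of all genes tested had groups that did not overlap, and no such share was computed for ratios of other gene pairs. Hk1, Hk2, Pfkm, Pdk1 and Pdk4, which these ratios contain, were also without overlap as single genes, while Ldha and Ldhb overlapped.

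Levels of the 10 genes differed widely. In controls Eno1 was highest per kilobase (948 ± 239), followed by Aldoa (883 ± 179), Ldha (709.5 ± 140.4), Pgk1 (436 ± 54.8) and Pkm (313 ± 31.4 CPM per kilobase). The ranges of Eno1, Aldoa and Ldha over the controls overlapped one another, although Aldoa exceeded Ldha within every control. Pgk1 lay below Ldha and above Pkm in every control. Hk1 (34.6 ± 4.52), Pfkp (28.6 ± 3.77) and Pfkl (27.7 ± 5.2) formed a lower tier whose ranges overlapped, and Pdk1 (5.14 ± 1.24) and Hk2 (2.199 ± 0.975 CPM per kilobase) were lowest. In knockouts Hk1 left its tier: its lowest library, 61.7 CPM per kilobase, exceeded the highest value of Pfkl, 36.7, and of Pfkp, 33.5.

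Among the 45 pairs of the 10 genes, Aldoa and Pgk1 were the closest in pattern (mean absolute difference 0.07 in centred log2 CPM), followed by Aldoa with Ldha (0.10) and with Eno1 (0.11), and Hk1 and Hk2 were the farthest apart (1.25). Pkm was closest to Pfkl (0.14) and farther from Eno1 (0.23) and Ldha (0.26). Control 1 was the lowest control for 5 of the 10 genes and the highest for 2. Control 4, which did not stand apart in Lyz2, was the lowest for 4. Knockout 3 was the lowest knockout for 8, and knockout 1 the highest knockout for 7. A link between Lyz2 and the levels of these genes was not tested. The coefficient of variation over controls ran from 10.0% (Pkm) to 44.3% (Hk2).

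The other enzymes of glycolysis were described from a list of 21 genes, of which 18 passed the filter on low counts. Pfkm and Pgam2, the muscle form of phosphoglycerate mutase, were higher, 0 were lower and 16 did not pass. The share called is near the 12.7% over all genes tested. The list's median log2 fold change was 0.21. Pgam2 stood at 12.9, 58.4, 35.8 and 37.1 CPM in the control libraries against 135, 67.5, 93.1 and 102 CPM in the knockout libraries (2.76-fold, edgeR adjusted p = 0.0320), and its call did not survive leaving out control 3, control 4 or any knockout but knockout 2 (adjusted p up to 0.0789). Gpi1, Tpi1, Gapdh, Pgam1, Bpgm and Adpgk had log2 fold changes of 0.09, 0.22, -0.13, 0.19, 0.16 and -0.18, in that order. Eno3, the muscle enolase, and Aldoc, the brain aldolase, stood at log2 fold changes of 0.71 and 1.26, neither past the threshold (adjusted p = 0.138 and 0.113). Eno2, Eno4, Pklr and Gapdhs had log2 fold changes of 0.24, 0.17, -0.08 and 0.41. Many processed copies of Gapdh exist in the mouse genome, so its level of 156 to 213 CPM is uncertain. As several of these are muscle forms, skeletal muscle markers were looked at: Ckm and Myh4 were at 0 in all 8 libraries, Acta1 stood at 0 to 0.356 CPM, and 2 of the 9 markers passed the filter, of which Pygm was higher. In these kidney libraries 4 haemoglobin genes were also at 0 throughout while Alas2 had counts, so a gene listed at 0 is not taken as absent from the tissue, and the part of muscle in these results was not tested.

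**Figure D4:**
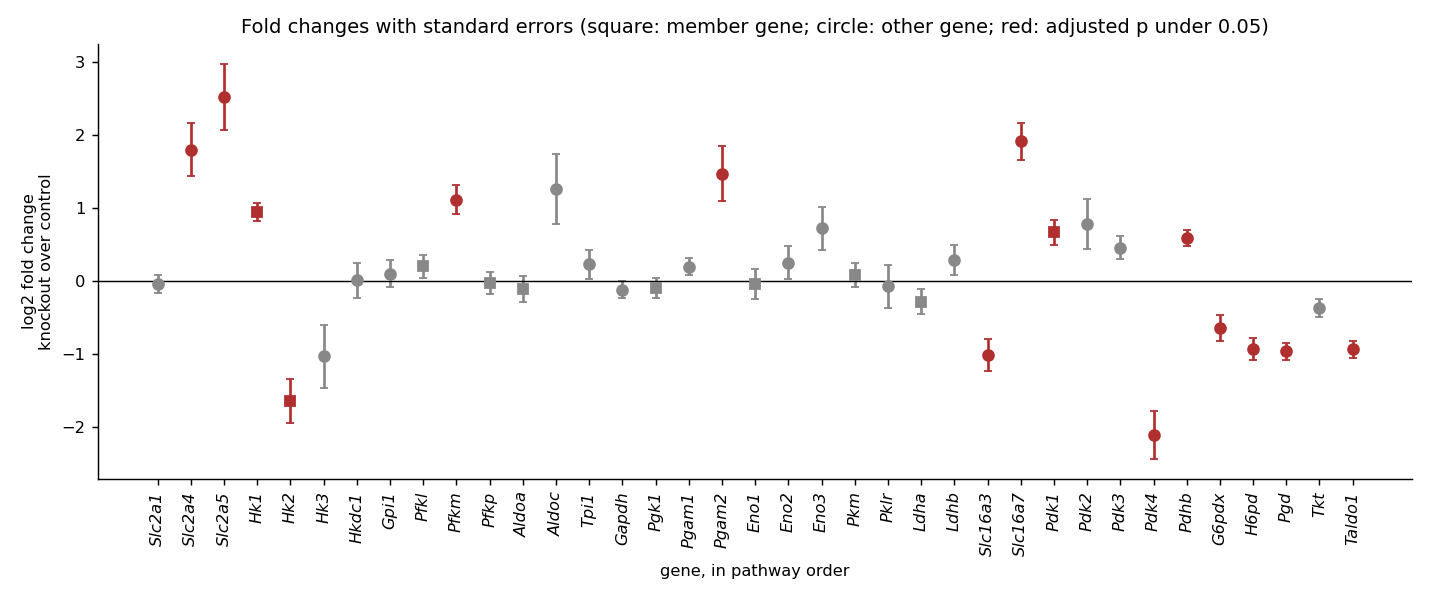
Log2 fold change, knockout over control, with its standard error (vertical axis) for glycolysis genes and connected genes in pathway order (horizontal axis); squares are the 10 genes of the list, circles other genes, and red marks an adjusted p under 0.05. Aldoa, Pgk1, Eno1 and Pkm lie between -0.12 and 0.08, and Hk1 and Hk2, Pdk1 and Pdk4, and Slc16a7 and Slc16a3 lie on opposite sides of it.

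Genes that feed, drain and control the pathway were counted from 6 further lists. Over all genes tested 12.7% were called, 6.45% higher and 6.28% lower. In the pentose phosphate pathway, which diverts glucose 6-phosphate to NADPH and ribose, 4 of 8 genes were lower and 0 higher, with a median log2 fold change of -0.51: Pgd fell from 605 ± 55.0 to 309 ± 21.6 CPM, Taldo1 from 747 ± 33.8 to 389 ± 32.8 CPM, H6pd from 612 ± 103 to 320 ± 34.1 CPM and G6pdx from 113 ± 26.0 to 72.2 ± 10.7 CPM (SD, n = 4 each). The edgeR adjusted p was 0.00157 for Pgd and Taldo1, 0.00491 for H6pd and 0.0361 for G6pdx, a call lost when control 1, control 3 or any knockout but knockout 2 was left out (adjusted p up to 0.103), or control 1 and knockout 3 both (0.131). Among 10 sugar and lactate transporters 3 were higher and 1 lower. Slc2a5, the fructose carrier GLUT5, rose 5.72-fold, Slc2a4, the insulin-regulated carrier GLUT4, 3.47-fold and Slc16a7, the monocarboxylate carrier MCT2, 3.75-fold, whereas Slc16a3, the lactate exporter MCT4, fell from 14.5 ± 3.67 to 7.15 ± 1.59 CPM and was no longer called when any knockout but knockout 1 was left out (adjusted p up to 0.0588) or when control 1 and knockout 3 were both left out (0.0696). Slc2a1, the common carrier GLUT1, stood at 138 ± 17.5 and 134 ± 10.8 CPM and did not pass.

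A list of 13 genes covers those that carry pyruvate into the citric acid cycle and those that control this step. Of these, 1 was higher, Pdhb, a subunit of pyruvate dehydrogenase (log2 fold change 0.58, edgeR adjusted p = 0.00977). The 1 that was lower was Pdk4, which like Pdk1 encodes a kinase that inactivates pyruvate dehydrogenase. Mpc2, a subunit of the mitochondrial pyruvate carrier, had a log2 fold change of 0.67 (adjusted p = 0.0564). Of 8 gluconeogenesis genes 1 was higher, Pcx, which makes oxaloacetate from pyruvate (1.74-fold, edgeR adjusted p = 0.0370). The share called in this list and in the pyruvate list is near the 12.7% over all genes tested. The Pcx call was lost when any library other than control 4 or knockout 1 was left out (adjusted p up to 0.101). It was also lost when control 1 and knockout 3 both were (0.143). Fbp1, which opposes phosphofructokinase, had a log2 fold change of 0.77 (adjusted p = 0.124), and Pck1 of 0.02. Of 5 genes that set fructose 2,6-bisphosphate, an activator of phosphofructokinase, 0 were called by edgeR or by DESeq2 (2 by edgeR at an unadjusted p under 0.05, which held for 29.1% of all genes), with log2 fold changes of 0.41 for Pfkfb4 and -0.33 for Tigar.

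Among 13 regulators of glycolytic genes 1 was lower and 0 higher, against 6.28% lower and 6.45% higher over all genes tested. Myc, a transcription factor that drives many glycolytic genes, stood at 102, 47.9, 91.6 and 57.7 CPM in the control libraries against 21.1 to 29.9 CPM in the knockout libraries, 2.77-fold lower (log2 fold change -1.47 with SE 0.24, edgeR adjusted p = 0.00486). Hif1a, which encodes the oxygen-regulated subunit of hypoxia-inducible factor 1, had a log2 fold change of -0.14 (adjusted p = 0.712), and Epas1, which encodes the subunit of factor 2, of 0.44 (adjusted p = 0.0503). Hif1a is regulated mainly at the protein level, which was not measured here.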

How the data were processed

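The authors deposited 1 table of raw counts per gene, with a column per library and gene lengths. The submitters' processing notes list HISAT2 2.2.1 and Salmon 1.10.2, and also FastQC and Trim Galore 0.6.2, with build mm39; the tool that counted and its annotation are not given. Only 13 of 18423 known Ensembl identifiers matched the symbol beside them, so symbols were used. Between 68.7% and 70.9% of counts from 1 to 20 were even, against 49.5% to 50.4% above 100; the cause was not tested, and intervals cover the spread between libraries.

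Genes were tested with edgeR 4.0.16 in R 4.3.3 (filterByExpr with a minimum count of 10, TMM, glmQLFit, glmQLFTest, no covariate, all 8 libraries) with Benjamini-Hochberg adjustment over 15000 genes. CPM use TMM factors; log2 CPM a prior count of 2. Intervals use the test's degrees of freedom. Isoform ratios used counts plus 0.5, per kilobase, with two-sided exact permutation tests. The fit was tested on simulated data. Alternatives were DESeq2 1.42.0, limma 3.58.1 voom with quality weights, other scalings and filters, a length and GC correction, a replicate block and left-out libraries. The 10 genes and all lists and ratios were chosen with earlier results of these data known. Named genes were the 10, every tested glycolysis gene and Pdk2 to Pdk4, up to 4 genes with the smallest p per other list, checks of label and injury, and the 3 nearest patterns per gene. Some genes were also named outside this rule, among them Pck1, Hif1a and Slc2a1, which were not called. Sequences are from RefSeq, build GRCm38.p6, which is not the build mm39 of the counts. Some genes and 1 ratio that the rule covers are not reported here.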

Additional observations from a re-analysis of the deposited data

Results flagged for a closer look

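Among 38 groups of 4 libraries (the 10 genes and the 9 ratios, in each group of libraries), 1 had a library far from the other 3 by Dixon's test at its 95% level. The log2 ratio of Pfkp to Pfkl was 0.18 in knockout 4, against -0.35 to -0.29 in the other knockouts. Chance flags about 1 in 20 such groups. Without knockout 4 the difference was -0.37 (exact permutation p = 0.0857). The overlap had to vanish with that library, as only knockout 4 lay within the control range of -0.21 to 0.64.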

How the results depend on the processing

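The calls of Hk1, Hk2, Pfkm and Pdk4 held in all 17 alternative fits, and Ldha passed in limma voom with sample quality weights (log2 fold change -0.45, adjusted p = 0.0488). The count of called genes among the 10 was 2 to 4 over these fits. Over all genes 1909 were called, against 3109 in DESeq2, 1045 without control 1 and knockout 3 together, and 907 to 1984 when 1 library was left out. Libraries share only a number between the groups: with the replicate number as a block 865 genes were called, Hk1 and Hk2 among them, and Pdk1 (adjusted p = 0.0685), Pgam2, Pdhb, Pcx and G6pdx lost their calls. Same-numbered libraries had correlations of deviations of -0.20, 0.04, 0.15 and -0.16, other pairs of -0.33 to 0.35, and no control correlated best with its own number.

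Signs turned only for values that were not called. Pfkp was at 0.0299 in limma voom and 0.12 without control 1 and knockout 3 together, Hkdc1 at -0.000429 with no filter and -0.0840 with the length and GC trends removed, Gpi1 at -0.0561 in limma voom, Pklr at 0.0202 with the replicate block, and log2 Pdk1/Pdk2 at 0.16 without control 1 and knockout 3 together. With 1 library left out the log2 fold change ran from -0.13 to 0.0495 for Pfkp, -0.21 to 0.0534 for Eno1, -0.0561 to 0.18 for Pkm, -0.13 to 0.15 for Hkdc1, -0.0344 to 0.21 for Gpi1, -0.0349 to 0.49 for Eno4 and -0.33 to 0.0966 for Pklr. The difference in log2 ratio ran from -0.65 to 0.14 for Pdk1/Pdk2 and from -0.22 to 0.42 for Pkm/Pklr. The causes were not tested. Ldhc had 0 to 4 counts per library and Pgk2 had 0, so neither passed the filter on low counts.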
